A study of Mus musculus with 16 samples.

Results

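Bronchoalveolar lavage cells (BALF), collected from the airways and not cultured, were compared with bone marrow derived macrophages (BMDM) of the same C57BL/6 wild type mice. The comparison took the 3 BALF and the 3 BMDM libraries of mice 1, 2 and 4, that is 6 of the 16 libraries in the series, chosen by their labels. Of the other 10 libraries, the 3 of ex vivo cultured alveolar macrophages (mexAM) and the 3 of peritoneal lavage cells (PLF) from these mice entered the same fit and are given beside BALF and BMDM where they help to place a level. The labels give no age or sex of the mice, no sort of the lavage cells, and no medium or duration of the marrow culture. All libraries read the 3′ ends of polyadenylated RNA. The BALF and BMDM groups thus differed in organ, cell source and culture at once, and what each of these contributed cannot be told apart.

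Alveolar macrophages live on the surface of the airspaces, where they take up surfactant lipid and inhaled particles. They arise mostly before birth and maintain themselves in the lung, and granulocyte-macrophage colony stimulating factor (GM-CSF) and transforming growth factor beta drive their identity through the nuclear receptor PPARgamma. Bone marrow derived macrophages are grown from marrow progenitors, as a rule with macrophage colony stimulating factor (M-CSF), and are used as the standard macrophage of the culture dish. The transcription factor c-Maf is carried by most macrophages of marrow and tissue, and alveolar macrophages are known to hold it at low levels.

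The labels were checked on markers. The alveolar macrophage genes Siglecf, Car4, Itgax, Marco, Chil3, Fabp1 and Pparg were all higher in BALF, and the monocyte and marrow macrophage genes Ly6c2, Ccr2, C1qa and Cx3cr1 were all lower. The libraries held 985582 to 1664635 counts in BALF and 1458341 to 2068473 in BMDM, so that a single count was worth 0.601 to 1.01 CPM (a count scaled to library size) in BALF and 0.483 to 0.686 CPM in BMDM. Mitochondrial transcripts took 12.1% to 16.3% of counts in BALF and 8.94% to 10.4% in BMDM, without overlap. Reads outside genes made up 19.9% to 21.4% in BALF and 20.8% to 28.3% in BMDM, and Gm42418, a locus of ribosomal RNA, took 4.27% to 13.6% in BALF and 5.95% to 12.5% in BMDM. The BALF libraries of mice 2 and 4 held haemoglobin and club cell transcripts that mouse 1 held at low levels, and the BMDM library of mouse 4 held the most neutrophil and stromal transcripts of its group. Their values stand beside the cell type markers further on.

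Most of what follows rests on a quasi-likelihood F test (edgeR) on the counts of 10011 genes, with p-values adjusted by Benjamini-Hochberg over all of them and a call at an adjusted p under 0.05. Levels are CPM with library sizes scaled by TMM, a method that sets most genes to no change, and changes are log2 fold changes of BALF over BMDM ± standard error with 3 mice a group. A total of 3747 genes were called (37.4%), 1818 of them higher in BALF (18.2%) and 1929 lower (19.3%). Changes of at least 4-fold were called higher for 565 genes (5.64%) and lower for 833 (8.32%). For 136 genes called lower no BALF library held a count, and for 30 called higher no BMDM library did. For these the fold is given as a bound, against 3 counts over the silent group, and for genes with 1 to 3 counts in a group as a ratio with its exact interval. That interval pools the reads of a group's libraries and leaves out the spread between mice. With library totals alone in place of TMM, 4006 genes were called, 30.5% of them higher in BALF instead of 48.5%, and the median over all genes lay at -0.32 instead of -0.03. No gene called in the main comparison had the opposite sign under that or any other scaling. In bulk RNA, fewer cells of a type and less RNA per cell cannot be told apart, which holds for every gene below.

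**Figure D1:**
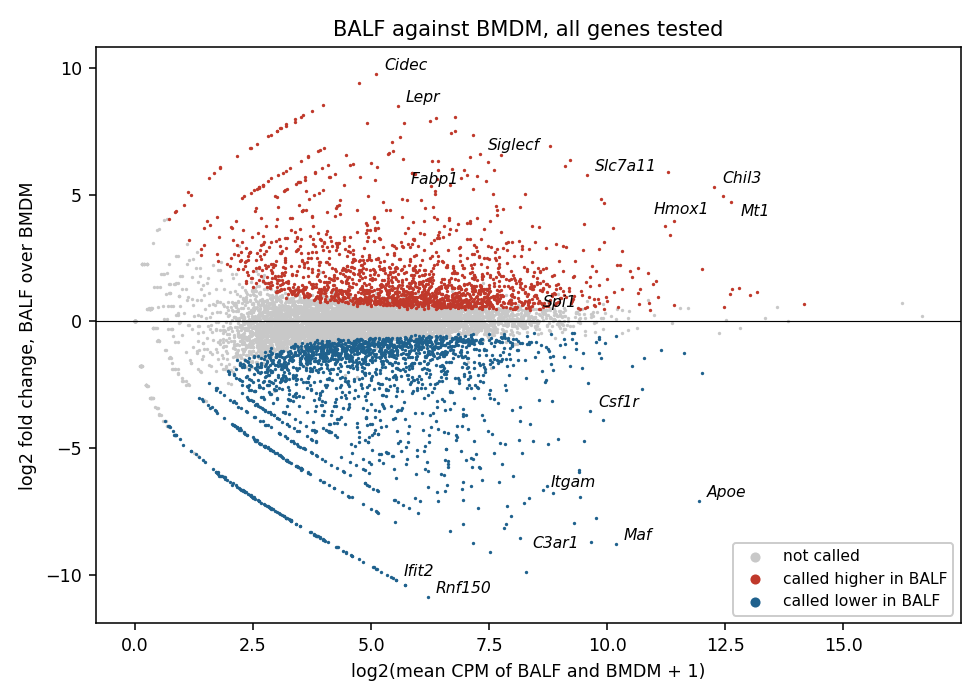
Log2 fold change of BALF over BMDM against the mean level of the 10011 genes tested. Genes called higher in BALF are red, genes called lower are blue and the rest grey. The streaks at low levels are genes with 0 or a few counts in one of the groups. Hmox1, Mt1 and Chil3 stand at the upper right, and Apoe, Maf and C3ar1 at the lower right.

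Genes that define alveolar macrophages were higher in BALF. All 35 tested members of the alveolar macrophage list of 36 were higher in BALF, against 18.2% of all genes, with a median log2 change of +5.55. The list was assembled with the results of these data known. Siglecf, a lectin that binds sialic acid and marks these cells and eosinophils (ENSMUSG00000039013, chr7:43351341-43359531 on the plus strand, GRCm38), stood at 360.1, 324 and 249 CPM in BALF, against 1.32, 2.61 and 5.85 CPM in BMDM. The groups were far apart, and the change was +6.60 ± 0.39 (adjusted p = 1.1e-09). Car4, a membrane-bound carbonic anhydrase (ENSMUSG00000000805, chr11:84957786-84966044 on the plus strand), stood at 349.6, 363 and 333 CPM in BALF, against 4.85, 5.22 and 2.93 CPM in BMDM (+6.30 ± 0.34). Chil3, a chitinase-like protein also called Ym1 (ENSMUSG00000040809, chr3:106147554-106167564 on the minus strand), was among the most abundant transcripts of the lavage cells. It stood at 12171, 9069 and 7601 CPM in BALF, against 193.7, 205 and 325 CPM in BMDM, so that the lowest BALF library exceeded the highest BMDM library many times over (+5.32 ± 0.34, adjusted p = 2.61e-09). Itgax, the integrin CD11c (ENSMUSG00000030789, chr7:128129547-128150657 on the plus strand), stood at 577, 538 and 525 CPM in BALF, against 8.82, 12.4 and 51.5 CPM in BMDM (+4.51 ± 0.55). Its BMDM level was uneven, with mouse 4 well above mice 1 and 2. The same library was the highest of its group for several other genes of the list. Without it the change of Itgax was +5.70, that of Siglecf +7.33, that of Fabp4 +4.46 and that of Atp6v0d2 +5.95.

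The scavenger receptor Marco, which binds bacteria and particles, stood at 322, 354 and 481 CPM in BALF, against 18.1, 16.3 and 19.3 CPM in BMDM (+4.42 ± 0.36). Its BMDM libraries lay close together and its BALF libraries were all higher. The fatty acid binding proteins that serve alveolar macrophages rose to different degrees. Fabp1, better known from liver, stood at 342, 273 and 266 CPM in BALF, against 6.18, 4.56 and 5.27 CPM in BMDM (+5.74 ± 0.44). Fabp4, the form of fat cells and macrophages and a classical PPARgamma target, stood at 336, 262 and 327 CPM in BALF, against 14.1, 13.7 and 46.2 CPM in BMDM (+3.65 ± 0.44), and Fabp5 at 215, 227 and 203 CPM in BALF, against 54.3, 52.8 and 90.1 CPM in BMDM (+1.71 ± 0.23). Atp6v0d2, a subunit of the proton pump, stood at 2129, 2076 and 1181 CPM in BALF, against 24.7, 33.9 and 133 CPM in BMDM (+4.82 ± 0.57). Ly75, the endocytic receptor DEC-205, stood at 223, 229 and 312 CPM in BALF, against 3.97, 7.17 and 2.93 CPM in BMDM (+5.78 ± 0.37), and Olr1, a receptor for oxidized lipoprotein, at 380.4, 369 and 401 CPM in BALF, against 7.50, 5.22 and 4.68 CPM in BMDM (+6.00 ± 0.34).

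Transcripts nearly absent from BMDM were among the largest changes upward. Cidec, a protein that fuses lipid droplets (ENSMUSG00000030278, chr6:113424634-113435760 on the minus strand), stood at 81.7, 47.4 and 71.6 CPM in BALF and had no count in BMDM, at least 123-fold higher. Clmn, a membrane protein with an actin binding domain, was at least 94.7-fold higher, with 53.7, 55.4 and 45.7 CPM in BALF and no count in BMDM. Lepr, the leptin receptor (ENSMUSG00000057722, chr4:101717404-101815352 on the plus strand), stood at 95.6, 96.0 and 87.7 CPM in BALF, against 0.441, 0 and 0 CPM in BMDM, a ratio of 513 (95% interval 91.5 to 20334). Only BMDM of mouse 1 held any count of it, and without that library the fitted change was +10.20, that of Perp +8.72 and that of Slc6a4 +9.52, against +8.50, +8.05 and +7.82 with it. Cd2, an adhesion receptor known from T cells, stood at 180.1, 236 and 236 CPM in BALF, against 0.441, 1.30 and 0.585 CPM in BMDM (+8.08 ± 0.42). Cd3e, a chain of the T cell receptor, had a count only in BALF of mouse 1. Perp, a p53 and p63 target of cell junctions, reached a ratio of 302 (95% interval 103 to 1466). Krt19, a keratin, had a ratio of 268 (95% interval 91.1 to 1303), and Slc6a4, the serotonin transporter, had a ratio of 321 (95% interval 56.9 to 12732) at 57.2, 50.8 and 65.3 CPM in BALF. Flvcr2, a choline and haem transporter, stood at 112, 129.9 and 60.9 CPM in BALF, a ratio of 276 (95% interval 75.8 to 2287). Slc39a2, a zinc importer, stood at 262, 252 and 329 CPM in BALF, against 1.32, 2.61 and 1.17 CPM in BMDM (+7.35 ± 0.34). Mcoln3, a lysosomal calcium channel, stood at 234, 212 and 166 CPM in BALF, against 0.882, 1.30 and 1.17 CPM in BMDM (+7.45 ± 0.33). These transcripts differed in whether the cultured alveolar macrophages held them. In mexAM the mean was 51.3 CPM for Cidec, 74.5 for Lepr, 193 for Perp and 383 for Slc39a2, but 1.05 for Cd2. In PLF these genes lay at 0.886, 0.667, 1.57 and 2.12 CPM, and Cd2 at 75.9 CPM.

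**Figure D2:**
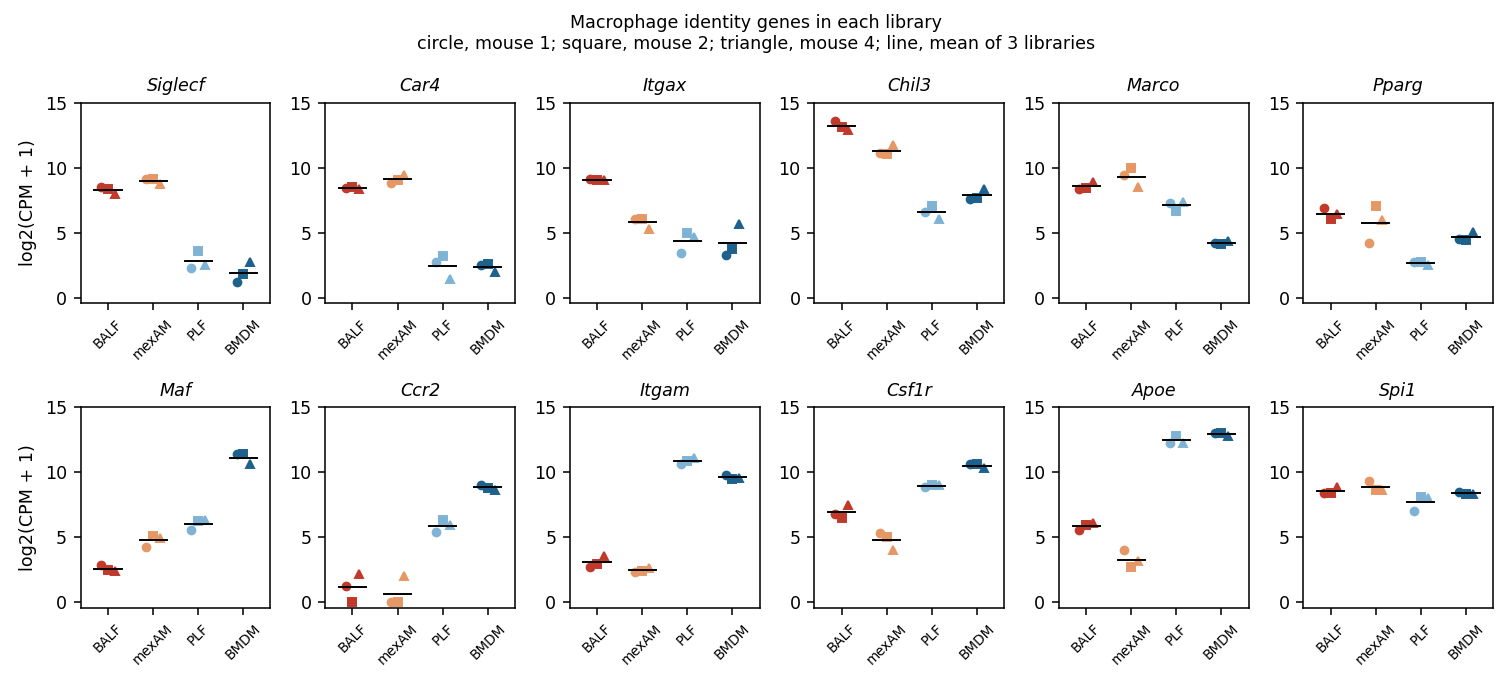
Levels of 12 macrophage genes in each library, as log2(CPM + 1), for BALF, mexAM, PLF and BMDM, with 1 symbol per mouse and a line at the mean. The upper row of genes is high in BALF and low in BMDM, the lower row the reverse, except Spi1, which was not called. In BMDM, mouse 4 is the highest library for Itgax, at 51.5 CPM.

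On the BMDM side stood the genes of monocytes and marrow macrophages. Of 27 tested, 26 were lower in BALF, against 19.3% of all genes, with a median of -6.95. The list was assembled with these results known. Its sum averaged 1912 CPM in BALF, 28520 CPM in BMDM, 2312 CPM in mexAM and 15230 CPM in PLF. Only Mmp12, the macrophage elastase, was not called (adjusted p = 0.0721). It stood at 96.3, 88.1 and 54.6 CPM in BALF, against 65.7, 69.1 and 729 CPM in BMDM, and in BMDM mouse 4 alone was high. Apoe, the apolipoprotein that carries lipid out of macrophages (ENSMUSG00000002985, chr7:19696109-19699188 on the minus strand), stood at 45.4, 61.0 and 67.1 CPM in BALF, against 8209, 8232 and 6902 CPM in BMDM (-7.08 ± 0.34, adjusted p = 1.51e-10). No library of the groups came near the other group. Itgam, the integrin CD11b, stood at 5.58, 6.78 and 10.7 CPM in BALF, against 887, 709 and 761 CPM in BMDM (-6.67 ± 0.28). Ccr2, the chemokine receptor that brings monocytes out of the marrow, stood at 1.40, 0 and 3.58 CPM in BALF, against 529, 443 and 405 CPM in BMDM (-7.98 ± 0.58), and Cx3cr1, the fractalkine receptor, at 2.79, 9.04 and 4.48 CPM in BALF, against 554, 522 and 162 CPM in BMDM (-6.34 ± 0.61). Without BALF of mouse 4 the change of Ccr2 was -8.95 and that of F13a1, a coagulation factor subunit of resident macrophages, -9.26. Ly6c2, the surface antigen of classical monocytes, had no count in BALF and 52.9, 37.8 and 125 CPM in BMDM, at least 82.2-fold lower in BALF. Its fitted change was -9.88, and -9.22 without BMDM of mouse 4. F13a1 stood at 1.40, 0 and 2.69 CPM in BALF, against 707, 689 and 304 CPM in BMDM (-8.54 ± 0.49), and Pf4, a chemokine of platelets and macrophages, at 5.58, 10.2 and 12.5 CPM in BALF, against 818, 795 and 889 CPM in BMDM. Stab1, a scavenger receptor, had a ratio of BMDM over BALF of 486 (95% interval 134 to 4017). Its fitted change of -8.75 was -8.05 without BALF of mouse 1 and -11.90 without BALF of mouse 4. For Gas6, the ligand of the Axl and Mer receptors, that ratio was 348 (95% interval 96.1 to 2876), and for Fcrls 642 (95% interval 177 to 5304). Trem2, a lipid-sensing receptor, stood at 21.6, 21.5 and 19.7 CPM in BALF, against 272, 267 and 398 CPM in BMDM (-3.89 ± 0.37). Neutrophil list transcripts summed to 142.4 to 164.9 CPM in BALF, against 2090 to 5578 CPM in BMDM. Their part in the monocyte genes was not tested.

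The largest changes downward ran beyond that list. Rnf150, a ring finger protein (ENSMUSG00000047747, chr8:82863356-83091268 on the plus strand), had no count in BALF, against 166, 155 and 113 CPM in BMDM, at least 165-fold lower in BALF. Blnk, an adaptor of immune receptors, was at least 118-fold lower, with no count in BALF and 81.6, 86.1 and 141 CPM in BMDM. Clec10a, a galactose-binding lectin, was at least 98.6-fold lower, Cd72 at least 89.7-fold lower, and Ifi209, an interferon-inducible DNA sensor relative, at least 104-fold lower. Igfbp4, a binding protein of insulin-like growth factors, stood at 0.698, 1.13 and 0 CPM in BALF, against 759, 679 and 419.6 CPM in BMDM, a ratio of BMDM over BALF of 1085 (95% interval 300.0 to 8959). Col1a2, a collagen chain of fibroblasts, was at least 119-fold lower in BALF, with no count there and 66.2, 60.6 and 185 CPM in BMDM, where mouse 4 was highest. Its fitted change was -10.41, and -9.70 without that library. In mexAM the levels were also near 0, with means of 0 CPM for Rnf150, 0.36 for Blnk and 0.263 for Igfbp4. In PLF, Blnk stood at 94.5 CPM, Igfbp4 at 45.3 CPM and Rnf150 at 14.6 CPM.

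Transcription factors moved both ways. Of 40 tested, 20 were higher in BALF, 10 lower and 10 not called, against 18.2% and 19.3% of all genes called higher and lower. Maf, which encodes c-Maf (ENSMUSG00000055435, chr8:115682942-115707794 on the minus strand), stood at 6.28, 4.52 and 4.48 CPM in BALF, against 2674, 2659 and 1586 CPM in BMDM (-8.77 ± 0.39, adjusted p = 8.01e-11). Its BALF libraries lay close together and far below every BMDM library. On the other side, Bhlhe40, a repressor linked to alveolar macrophage proliferation (ENSMUSG00000030103, chr6:108660629-108666925 on the plus strand), stood at 610.0, 649.5 and 523 CPM in BALF, against 16.8, 14.3 and 22.8 CPM in BMDM (+5.04 ± 0.42), and its paralog Bhlhe41 at 805, 907 and 887 CPM in BALF, against 119, 95.8 and 94.2 CPM in BMDM (+3.07 ± 0.19). Maff, a small Maf protein, stood at 151, 154 and 145 CPM in BALF, against 8.38, 9.78 and 7.61 CPM in BMDM (+4.12 ± 0.37). Pparg stood at 117, 65.5 and 86.8 CPM in BALF, against 22.1, 20.9 and 32.8 CPM in BMDM (+1.84 ± 0.52, adjusted p = 0.0137). The groups did not overlap, but it missed the threshold without BALF of mouse 1 (+1.60, adjusted p = 0.0523), without BMDM of mouse 1 (+1.75, adjusted p = 0.0549) and without BMDM of mouse 2 (+1.73, adjusted p = 0.0524). Spi1, which encodes PU.1, the factor all macrophages need, was not called at 332, 338 and 458 CPM in BALF, against 359, 318 and 315 CPM in BMDM (+0.18 ± 0.26, adjusted p = 0.624). In mexAM, Bhlhe40 averaged 208 CPM, Bhlhe41 807 CPM and Maf 27.1 CPM. In PLF, Maf averaged 67.6 CPM, between BALF and BMDM.

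The receptors for colony stimulating factors split. Csf1r, the receptor for M-CSF, stood at 108, 90.4 and 177 CPM in BALF, against 1579, 1560 and 1266 CPM in BMDM (-3.55 ± 0.30). Csf2ra, the specific chain of the GM-CSF receptor (ENSMUSG00000059326, chr19:61223957-61228429 on the minus strand), stood at 384, 971 and 351 CPM in BALF, against 138, 80.8 and 118 CPM in BMDM (+2.33 ± 0.59, adjusted p = 0.00765). BALF of mouse 2 was the highest, and without it the change was +1.71. Csf2rb, the chain it shares with the receptors of interleukins 3 and 5, stood at 365, 375 and 555 CPM in BALF, against 202, 199.5 and 204 CPM in BMDM (+1.10 ± 0.23). With BALF of mouse 1 as the only BALF library, whose spread is then taken from the other groups, Csf2ra was at +1.76 (adjusted p = 0.113) and Csf2rb at +0.85 (adjusted p = 0.0559). The cyclins that act below these receptors moved in opposite directions. Ccnd2 stood at 231, 280.1 and 1005 CPM in BALF, against 48.1, 49.5 and 69.6 CPM in BMDM (+3.18 ± 0.56), and +2.19 without BALF of mouse 4. Ccnd1 stood at 2.09, 2.26 and 3.58 CPM in BALF, against 127, 92.6 and 304 CPM in BMDM (-6.02 ± 0.63), and -5.35 without BMDM of mouse 4. Over the 18 genes of this axis tested, 5 were higher and 3 lower, against 18.2% and 19.3% of all genes. The lower count was 5 without BMDM of mouse 4, 5 with mice as blocks in the 6 libraries or with no filter on low counts, and 6 with DESeq2, with library totals alone or with the 6 libraries only. Of 18 pan-macrophage genes, 3 were higher and 7 lower. Adgre1, which encodes F4/80, stood at 274, 247 and 201 CPM in BALF, against 1395, 1264 and 1254 CPM in BMDM (-2.43 ± 0.20). Mertk, a receptor for dying cells, stood at 528, 464 and 256 CPM in BALF, against 224, 211 and 145 CPM in BMDM (+1.11 ± 0.28). Mrc1, the mannose receptor, stood at 1028, 989.5 and 1056 CPM in BALF, against 752, 825 and 454 CPM in BMDM (+0.60 ± 0.23, adjusted p = 0.0467), a call lost without any single library except BMDM of mouse 2, at changes of +0.38 (BMDM of mouse 4 left out) to +0.68 (BMDM of mouse 1 left out).

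Interferon-stimulated genes were lower in BALF as a whole. These genes are switched on by type I and type II interferons and encode antiviral effectors. Many carry an interferon-stimulated response element (ISRE), bound by factors of the IRF family, just ahead of their start. To show that element, the 150 bases before the RefSeq start are given for members of the list whose window holds GAAA, any 2 bases and GAAA, on either strand, with the match in capitals. The sequences are RefSeq promoters on GRCm38.p6, on the strand of the gene, 5′ to 3′. Overlapping matches run together in Isg15 and Bst2.
Isg15, chr4:156200819-156200968, minus strand: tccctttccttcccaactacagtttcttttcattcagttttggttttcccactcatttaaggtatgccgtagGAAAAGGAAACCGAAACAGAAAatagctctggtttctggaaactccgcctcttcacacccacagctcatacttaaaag
Ifit1, chr19:34640739-34640888, plus strand: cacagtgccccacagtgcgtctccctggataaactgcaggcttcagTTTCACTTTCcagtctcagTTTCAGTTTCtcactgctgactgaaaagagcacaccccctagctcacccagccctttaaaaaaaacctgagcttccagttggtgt
Ifit3, chr19:34583379-34583528, plus strand: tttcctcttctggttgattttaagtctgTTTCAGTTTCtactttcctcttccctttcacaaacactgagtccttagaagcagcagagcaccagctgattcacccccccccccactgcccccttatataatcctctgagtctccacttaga
Rsad2, chr12:26456453-26456602, minus strand: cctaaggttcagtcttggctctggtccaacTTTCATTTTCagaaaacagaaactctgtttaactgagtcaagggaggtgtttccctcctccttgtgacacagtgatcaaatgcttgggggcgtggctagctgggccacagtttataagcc
Oas3, chr5:120777660-120777809, minus strand: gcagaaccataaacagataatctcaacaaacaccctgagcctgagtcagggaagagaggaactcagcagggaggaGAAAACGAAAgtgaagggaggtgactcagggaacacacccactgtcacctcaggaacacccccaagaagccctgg
Bst2, chr8:71537473-71537622, minus strand: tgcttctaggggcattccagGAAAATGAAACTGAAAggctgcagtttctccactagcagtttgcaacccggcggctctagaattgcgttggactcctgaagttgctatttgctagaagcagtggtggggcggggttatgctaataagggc
Of the 27 tested members with a promoter in the table, 16 held this pattern in the 300 bases from 250 before to 50 after the start (59.3%), against 943 of 27025 promoters overall (3.49%). It stood in 32 of 1402 promoters of genes called higher in BALF (2.28%) and in 76 of 1475 of genes called lower (5.15%). These shares describe letters in a window and were not tested.

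Of 36 interferon-stimulated genes, 35 were lower in BALF, against 19.3% of all genes, with a median of -4.54, or -4.34 with silent genes at their bound. The exception, Isg20, was not called (-1.13, adjusted p = 0.159) at 3.49, 11.3 and 1.79 CPM in BALF, against 14.1, 9.78 and 9.36 CPM in BMDM. It was called without BALF of mouse 2 (-2.02, adjusted p = 0.0343). The list summed to 228.9 to 298.1 CPM in BALF and 2461 to 3457 CPM in BMDM. Ifit2, an inhibitor of viral translation (ENSMUSG00000045932, chr19:34550694-34576419 on the plus strand), had no count in BALF and 129.7, 90.0 and 51.5 CPM in BMDM, at least 104-fold lower in BALF. Cmpk2, a mitochondrial nucleotide kinase, was at least 58.8-fold lower, with 57.3, 58.7 and 38.0 CPM in BMDM. Its neighbour Rsad2, the antiviral enzyme viperin, stood at 5.58, 15.8 and 11.6 CPM in BALF, against 325, 295 and 208 CPM in BMDM (-4.71 ± 0.70). In BMDM, mouse 4 was the lowest library for each of these 3 genes. Isg15, a ubiquitin-like modifier, stood at 4.89, 3.39 and 2.69 CPM in BALF, against 48.5, 59.3 and 53.8 CPM in BMDM (-3.81 ± 0.53), and Ifit1 at 1.40, 3.39 and 5.37 CPM in BALF, against 133, 105 and 65.5 CPM in BMDM (-4.94 ± 0.88). Ifit3 stood at 0, 1.13 and 2.69 CPM in BALF, against 78.5, 60.0 and 43.9 CPM in BMDM (-5.61 ± 0.77), which was -4.88 without BALF of mouse 1 and -6.91 without BALF of mouse 4. Oas3, an activator of RNase L, was at least 34.1-fold lower and Iigp1, an immunity-related GTPase, at least 29.4-fold lower. Irf7, the factor that amplifies interferon production, stood at 0.698, 2.26 and 2.69 CPM in BALF, against 68.8, 71.1 and 65.5 CPM in BMDM (-5.22 ± 0.70). Bst2, or tetherin, which holds virions on the cell surface, stood at 36.3, 33.9 and 28.6 CPM in BALF, against 149, 171 and 150.4 CPM in BMDM (-2.24 ± 0.19). In mexAM the list averaged 296 CPM and in PLF 2077 CPM.

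**Figure D3:**
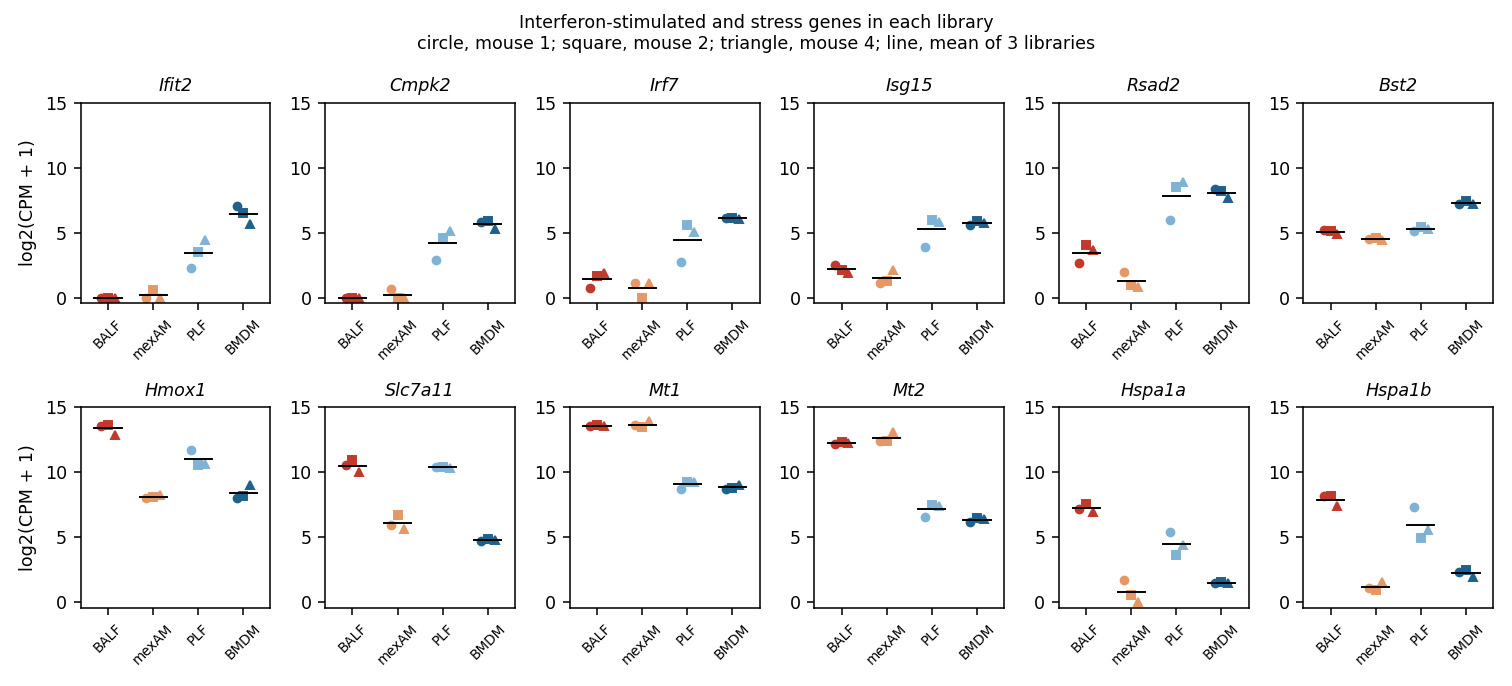
Levels of 6 interferon-stimulated genes (upper row) and 6 stress genes (lower row) in each library, as log2(CPM + 1), with 1 symbol per mouse and a line at the mean. Interferon-stimulated genes are low in BALF and mexAM and high in BMDM, while Mt1 and Mt2 are high in BALF and mexAM. Hmox1, Slc7a11, Hspa1a and Hspa1b are high in BALF and lower in mexAM and BMDM. In PLF the means of Hmox1 and Slc7a11 also stand above those of mexAM and BMDM.

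Genes of cholesterol synthesis were higher in BALF. SREBP-2 drives this pathway together with NF-Y, a factor that binds the CCAAT box. The 150 bases before the start are shown for 4 members, with CCAAT or its complement ATTGG in capitals, from the same RefSeq table and build.
Hmgcs1, chr13:119690201-119690350, plus strand: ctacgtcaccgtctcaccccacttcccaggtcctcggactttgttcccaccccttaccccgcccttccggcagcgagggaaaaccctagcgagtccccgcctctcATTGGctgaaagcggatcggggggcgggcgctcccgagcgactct
Mvd, chr8:122443423-122443572, minus strand: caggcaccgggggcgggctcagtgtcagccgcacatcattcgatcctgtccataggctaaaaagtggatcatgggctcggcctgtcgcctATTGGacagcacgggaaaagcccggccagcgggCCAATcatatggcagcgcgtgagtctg
Cyp51, chr5:4104698-4104847, minus strand: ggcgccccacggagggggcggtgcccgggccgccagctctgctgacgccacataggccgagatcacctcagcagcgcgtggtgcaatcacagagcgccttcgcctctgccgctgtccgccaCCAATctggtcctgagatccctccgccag
Hsd17b7, chr1:169969206-169969355, minus strand: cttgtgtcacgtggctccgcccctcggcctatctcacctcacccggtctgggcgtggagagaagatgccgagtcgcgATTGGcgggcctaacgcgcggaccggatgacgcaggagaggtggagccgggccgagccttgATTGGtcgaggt
The box stood in the promoter window of 14 of 16 tested members found in the table (87.5%), against 10248 of 27025 promoters (37.9%). For genes called higher in BALF the share was 38.9% and for genes called lower 34.7%. As a further description, the core of the metal response element, TGCACNC, stood in 5 of 15 promoters of the metallothionein and zinc transporter list (33.3%), against 12.4% of all. The heat shock element, searched as GAA, any 2 bases, TTC, any 2 bases and GAA, stood in 3 of 15 of the heat shock list (20%), against 0.529%.

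Of 23 cholesterol synthesis genes, 19 were higher in BALF and none lower, against 18.2% and 19.3% of all genes, with a median of +1.47. The 4 others were not called. The list summed to 1904 to 2245 CPM in BALF and 455.3 to 550.5 CPM in BMDM. Hmgcs1, the synthase ahead of HMG-CoA reductase (ENSMUSG00000093930, chr13:119690379-119708260 on the plus strand), stood at 267, 303 and 326 CPM in BALF, against 55.6, 65.2 and 35.1 CPM in BMDM (+2.52 ± 0.23). Hsd17b7, a sterol reductase, stood at 81.7, 137 and 111 CPM in BALF, against 10.6, 2.61 and 7.02 CPM in BMDM (+3.93 ± 0.36), and Cyp51, the lanosterol demethylase, at 167, 238 and 198 CPM in BALF, against 35.3, 33.2 and 28.7 CPM in BMDM (+2.62 ± 0.25). For these 3 genes every BALF library exceeded every BMDM library. Mvd, which makes isopentenyl pyrophosphate, stood at 37.0, 31.6 and 85.0 CPM in BALF, against 7.50, 10.4 and 9.95 CPM in BMDM (+2.48 ± 0.50), and Insig1, the sterol-sensing anchor of SREBP, at 72.6, 64.4 and 66.2 CPM in BALF, against 11, 11.7 and 9.36 CPM in BMDM (+2.66 ± 0.31). In mexAM the list averaged 5131 CPM and in PLF 508 CPM.

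Genes of lipid storage and fatty acid oxidation were called higher more often than lower. Of 29 genes of lipid uptake, droplets and lipases, 17 were higher in BALF and 4 lower, against 18.2% and 19.3% of all genes. Mgll, the lipase of monoglycerides, stood at 295, 308 and 221 CPM in BALF, against 5.29, 8.48 and 8.19 CPM in BMDM (+5.24 ± 0.31). Cideb, a relative of Cidec, stood at 16.1, 29.4 and 13.4 CPM in BALF, against 0.882, 1.30 and 0 CPM in BMDM (+4.58 ± 0.57). Of 24 fatty acid oxidation genes, 12 were higher and 1 lower. The lower count was 0 without BALF of mouse 2 or BMDM of mouse 1 and 2 without BMDM of mouse 4. Cpt2, the inner carnitine transferase of mitochondria, stood at 37.0, 32.8 and 35.8 CPM in BALF, against 10.1, 11.7 and 11.1 CPM in BMDM (+1.68 ± 0.26), and Acot1, a thioesterase, at 40.5, 36.1 and 41.2 CPM in BALF, against 3.97, 3.91 and 7.02 CPM in BMDM (+2.98 ± 0.33). Both were called without overlap between the groups. Among LXR targets and fatty acid synthesis genes, 9 of 17 were higher and 4 lower. The sum of this list went the other way, at a mean of 1444 CPM in BALF and 9022 CPM in BMDM. Apoe, among those lower, was its most abundant member in BMDM. With BALF of mouse 1 as the only BALF library the higher count was 5. Abca1, the exporter that loads cholesterol onto apolipoprotein, stood at 23.7, 29.4 and 42.1 CPM in BALF, against 315, 257 and 199 CPM in BMDM (-3.03 ± 0.31). Abcg1, which passes cholesterol to high density lipoprotein, went the other way, at 653, 666 and 479 CPM in BALF, against 127, 106 and 183 CPM in BMDM (+2.11 ± 0.28). Scd1, a desaturase, stood at 27.9, 7.91 and 42.1 CPM in BALF, against 2.65, 1.96 and 5.27 CPM in BMDM (+2.995 ± 0.60), and Fads1, another desaturase, at 9.77, 5.65 and 4.48 CPM in BALF, against 68.4, 69.8 and 62.6 CPM in BMDM (-3.27 ± 0.30). Scd1 averaged 711 CPM in mexAM, above both groups.

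Stress programmes were higher in BALF. The NRF2 pathway defends against oxidants. Of its 22 tested genes, 16 were higher in BALF and none lower, against 18.2% and 19.3% of all genes, with a median of +1.54. Hmox1, haem oxygenase (ENSMUSG00000005413, chr8:75093621-75100589 on the plus strand), stood at 12334, 12935 and 7406 CPM in BALF, against 262, 293 and 506 CPM in BMDM (+4.95 ± 0.38, adjusted p = 3.48e-08). Mouse 4 was the lowest BALF library and the highest BMDM library, and the groups stayed far apart. Slc7a11, the cystine importer that feeds glutathione synthesis (ENSMUSG00000027737, chr3:49892526-50443614 on the minus strand), stood at 1481, 1937 and 1064 CPM in BALF, against 25.6, 28.0 and 27.5 CPM in BMDM (+5.79 ± 0.31). Srxn1, which repairs peroxiredoxins, stood at 1360, 1807 and 884 CPM in BALF, against 79.8, 67.2 and 131 CPM in BMDM (+3.86 ± 0.40). Nqo1, a quinone reductase, stood at 30.7, 30.5 and 36.7 CPM in BALF, against 4.41, 1.96 and 4.68 CPM in BMDM (+3.09 ± 0.41). In mexAM, Hmox1 averaged 279.7 CPM and Slc7a11 71.4 CPM, and in PLF they averaged 2168 and 1327 CPM. Of 18 tested metallothionein and zinc transporter genes, 5 were higher in BALF, 4 lower and 9 not called. The shares over all genes were 18.2% higher and 19.3% lower. The metallothioneins, which bind zinc and copper, were among the most abundant transcripts of BALF. Mt1 (ENSMUSG00000031765, chr8:94179082-94180327 on the plus strand) stood at 12027, 12707 and 11763 CPM in BALF, against 430.1, 439 and 525 CPM in BMDM (+4.71 ± 0.26). Mt2 stood at 4540, 5234 and 4892 CPM in BALF, against 72.3, 88.7 and 81.9 CPM in BMDM (+5.92 ± 0.32). In mexAM the means were 13077 CPM for Mt1 and 6523 CPM for Mt2, and in PLF 544 and 147 CPM. The zinc importer Slc39a4 went the other way, at 0, 0 and 0.895 CPM in BALF and 34.4, 23.5 and 11.7 CPM in BMDM, a ratio of BMDM over BALF of 83.5 (95% interval 14.7 to 3324). Its fitted change was -6.00, -5.36 without BALF of mouse 1 and -8.31 without BALF of mouse 4.

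Heat shock, immediate early and unfolded protein genes were also higher in BALF than in BMDM. Their list sums averaged 7527, 6418 and 9232 CPM in BALF and 2884, 3307 and 5152 CPM in BMDM. In PLF, the other lavage, they averaged 5963, 9129 and 8308 CPM, and in mexAM 3639, 4566 and 5051 CPM. Of 19 heat shock chaperones, 16 were higher in BALF and only Dnajb4 was lower, against 18.2% and 19.3% of all genes. Hspa1a, an inducible HSP70 (ENSMUSG00000091971, chr17:34969190-34972156 on the minus strand), stood at 146, 191 and 121 CPM in BALF, against 1.76, 1.96 and 1.76 CPM in BMDM (+6.33 ± 0.52). Its close paralog Hspa1b stood at 285, 282 and 165 CPM in BALF, against 3.97, 4.56 and 2.93 CPM in BMDM (+5.97 ± 0.63). How reads divided between these near-identical genes is uncertain. Hspa4l stood at 179, 184 and 108 CPM in BALF, against 34.4, 37.2 and 35.7 CPM in BMDM (+2.14 ± 0.23), and Hsph1, another member of the HSP110 family, at 112, 119 and 78.8 CPM in BALF, against 25.1, 17.0 and 32.2 CPM in BMDM (+2.05 ± 0.41). Immediate early genes are switched on within minutes of a stimulus, and 19 of 31 were higher and 1 lower. With BALF of mouse 1 as the only BALF library, 10 were higher, and without BMDM of mouse 4 2 were lower. Dusp5, a phosphatase of ERK, stood at 146, 199.9 and 202 CPM in BALF, against 16.8, 11.1 and 22.2 CPM in BMDM (+3.43 ± 0.29). Fosl1 stood at 9.07, 23.7 and 18.8 CPM in BALF, against 1.32, 0 and 1.17 CPM in BMDM (+4.10 ± 0.58) and Fosb at 39.8, 63.3 and 34.9 CPM in BALF, against 3.97, 4.56 and 2.93 CPM in BMDM (+3.55 ± 0.84), both partners in AP-1. Of 25 genes of the unfolded protein response, 17 were higher and 1 lower. Atf4, the transcription factor of the integrated stress response, stood at 641, 834 and 724 CPM in BALF, against 220.1, 209 and 350.0 CPM in BMDM (+1.497 ± 0.26). The higher count was 11 without BMDM of mouse 2, 11 without BMDM of mouse 4 and 11 with library totals alone. Gdf15, a stress-induced cytokine, stood at 1900, 2750 and 956 CPM in BALF, against 63.5, 52.2 and 106 CPM in BMDM (+4.66 ± 0.62). In the same libraries mitochondrial transcripts took 12.1% to 16.3% of counts in BALF and 8.94% to 10.4% in BMDM. The part of cell handling or RNA quality in these genes was not tested.

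**Figure D4:**
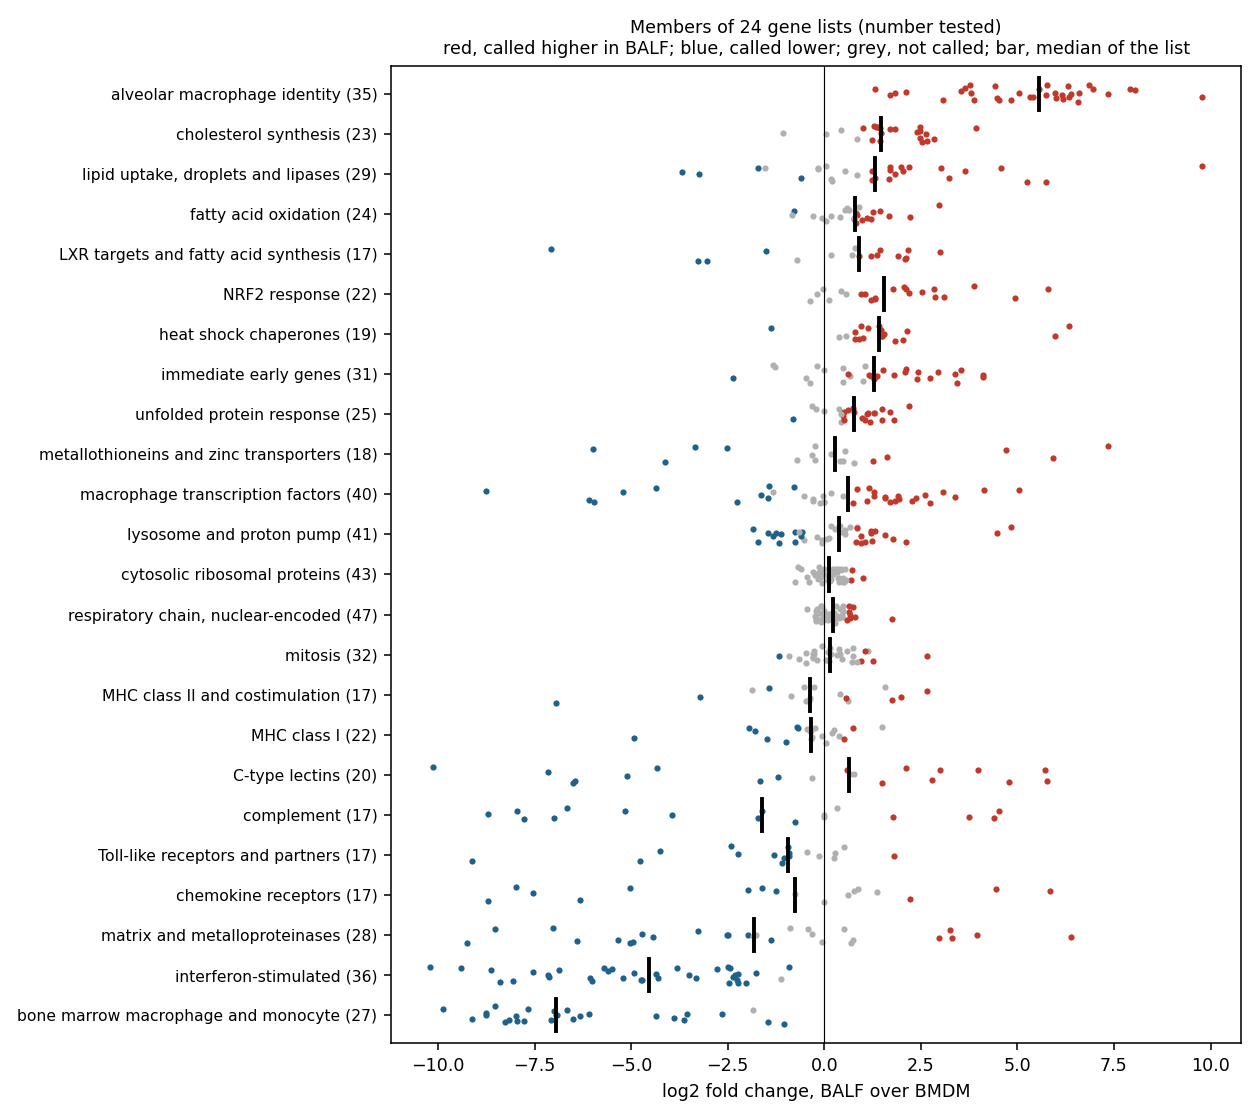
Log2 fold change of BALF over BMDM for each tested member of 24 gene lists, with the number tested in parentheses. Members called higher in BALF are red, called lower blue and not called grey, and a bar marks the median. The alveolar macrophage list has its median at +5.55, and the interferon list and the bone marrow macrophage list lie furthest to the left, at -4.54 and -6.95.

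Complement genes, and Toll-like receptors with their partners, were mostly lower in BALF. Of 17 complement genes, 10 were lower and 4 higher, against 19.3% and 18.2% of all genes. The chains of C1q, which starts the classical pathway, fell together. C1qa stood at 2.09, 3.39 and 9.85 CPM in BALF, against 626, 675 and 636 CPM in BMDM (-6.99 ± 0.35), C1qb at 4.89, 14.7 and 5.37 CPM in BALF, against 1875, 1690 and 1592 CPM in BMDM (-7.78 ± 0.40) and C1qc at 6.28, 6.78 and 1.79 CPM in BALF, against 1286, 1273 and 1167 CPM in BMDM (-7.95 ± 0.36). Without BALF of mouse 4, C1qa was at -7.92, and without BALF of mouse 2, C1qb was at -8.38. C3ar1, the receptor for the C3a fragment (ENSMUSG00000040552, chr6:122847138-122856161 on the minus strand), stood at 4.19, 1.13 and 5.37 CPM in BALF, against 1684, 1393 and 1748 CPM in BMDM (-8.71 ± 0.49). Cfb, factor B of the alternative pathway, went up, at 69.8, 67.8 and 84.1 CPM in BALF, against 3.09, 3.26 and 4.10 CPM in BMDM (+4.39 ± 0.43). Among Toll-like receptors and their partners, 11 of 17 were lower and only Tlr2 was higher. With BALF of mouse 1 as the only BALF library, 6 were lower and 0 higher. Tlr1, a partner of Tlr2, had no count in BALF and 46.8, 46.3 and 34.5 CPM in BMDM, at least 48.7-fold lower in BALF. Cd180 stood at 4.19, 3.39 and 3.58 CPM in BALF, against 93.1, 111 and 109 CPM in BMDM (-4.76 ± 0.32), and its partner Ly86, or MD-1, at 10.5, 7.91 and 6.27 CPM in BALF, against 178, 155 and 147 CPM in BMDM (-4.24 ± 0.27). Unc93b1, which escorts Toll-like receptors to endosomes, stood at 149, 137 and 106 CPM in BALF, against 794, 692 and 595 CPM in BMDM (-2.41 ± 0.24). Fcgr1, the high affinity receptor for immunoglobulin G, stood at 9.77, 3.39 and 12.5 CPM in BALF, against 110.3, 97.8 and 126 CPM in BMDM (-3.63 ± 0.30), and Fcgr3 at 351, 296 and 167 CPM in BALF, against 963, 1022 and 768 CPM in BMDM (-1.76 ± 0.24).

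C-type lectins divided. Of 20 tested, 9 were higher in BALF and 8 lower, against 18.2% and 19.3% of all genes. Ly75, given above, was among the higher ones. The list summed to 8359 to 10800 CPM in BALF, against 2876 to 3476 CPM in BMDM. The galactose-type lectins were on the lower side, with Mgl2 at least 12.3-fold lower beside Clec10a, and Clec4a1 stood at 1.40, 2.26 and 5.37 CPM in BALF, against 315, 235 and 266 CPM in BMDM (-6.50 ± 0.43). Without BALF of mouse 4 its change was -7.24. Chemokine receptors were lower for 8 of 17 and higher for 3. Cmklr1, the chemerin receptor, had a ratio of BMDM over BALF of 238 (95% interval 42.4 to 9407), and a fitted change of -7.55, -6.91 without BALF of mouse 1 and -9.86 without BALF of mouse 4. Among chemokine ligands, 9 of 19 were lower and 5 higher. The higher count was 2 without BALF of mouse 4 and 3 without BMDM of mouse 1 or mouse 2. Summed over the list, the ligands were higher in BALF, at 5084 to 5538 CPM, against 2351 to 3349 CPM in BMDM. Cxcl16, a membrane-bound ligand, stood at 13.3, 11.3 and 24.2 CPM in BALF, against 365, 366 and 354 CPM in BMDM (-4.46 ± 0.36), and Ccl4 at 4.19, 3.39 and 1.79 CPM in BALF, against 58.2, 56.1 and 50.3 CPM in BMDM (-4.07 ± 0.69). Ccl5 stood at 0.698, 1.13 and 6.27 CPM in BALF, against 76.8, 54.1 and 50.3 CPM in BMDM (-4.49 ± 0.47), and at -6.02 without BALF of mouse 4. Of inflammatory cytokines, 7 of 18 were higher and 4 lower. Il18, which is made without induction in many barrier cells, stood at 239, 220.3 and 298 CPM in BALF, against 18.1, 15.6 and 17.6 CPM in BMDM (+3.87 ± 0.24). Il1rn, the antagonist of interleukin 1, stood at 283, 389 and 503 CPM in BALF, against 22.9, 18.9 and 59.7 CPM in BMDM (+3.53 ± 0.62), and at +4.21 without BMDM of mouse 4. Il1a was called at 18.1, 16.9 and 66.2 CPM in BALF, against 2.21, 0.652 and 2.34 CPM in BMDM (+4.17 ± 1.17, adjusted p = 0.0136), but not without BALF of mouse 4 (+3.23, adjusted p = 0.0864).

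Antigen presentation genes were called in both directions. Of 17 genes of MHC class II and costimulation, 4 were higher in BALF, 3 lower and 10 not called, against 18.2% and 19.3% of all genes called higher and lower. H2-DMa, which edits the peptides of class II, stood at 254, 265 and 162 CPM in BALF, against 64.0, 63.9 and 72.6 CPM in BMDM (+1.76 ± 0.27), and Ifi30, a lysosomal thiol reductase, at 454, 594 and 451 CPM in BALF, against 129, 104 and 142 CPM in BMDM (+2.00 ± 0.33). Cd274, which encodes the checkpoint ligand PD-L1, stood at 203, 371 and 153 CPM in BALF, against 41.5, 32.6 and 40.4 CPM in BMDM (+2.65 ± 0.48). H2-Eb1 was called lower at 48.2, 48.6 and 73.4 CPM in BALF, against 99.3, 88.7 and 273 CPM in BMDM (-1.43 ± 0.41, adjusted p = 0.0126). In BMDM mouse 4 was far above the others, and the call was lost without that library (-0.73, adjusted p = 0.074) and without BALF of mouse 1 (adjusted p = 0.0545) or mouse 2 (adjusted p = 0.0511). For MHC class I, 7 of 22 were lower and 2 higher. The higher count was 1 without any single library except BALF of mouse 4, and the lower count 3 with BALF of mouse 1 as the only BALF library. Among the lower ones were Psmb9, an immunoproteasome subunit, at 18.8, 12.4 and 19.7 CPM in BALF, against 67.9, 77.6 and 56.8 CPM in BMDM (-1.96 ± 0.32), and the peptide transporter chain Tap1 at 14.7, 31.6 and 36.7 CPM in BALF, against 71.9, 78.2 and 77.8 CPM in BMDM (-1.49 ± 0.30). Nlrc5, the activator of class I genes, had a ratio of BMDM over BALF of 38.0 (95% interval 6.57 to 1527). Without BALF of mouse 1 its fitted change was -7.20.

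Matrix genes and proteases differed by gene. Of 28 matrix genes, 14 were lower in BALF and 5 higher, against 19.3% and 18.2% of all genes. Thbs1, thrombospondin, stood at 6.28, 7.91 and 2.69 CPM in BALF, against 208, 170.2 and 174 CPM in BMDM (-5.04 ± 0.34). Adam8, a sheddase, stood at 0, 2.26 and 3.58 CPM in BALF, against 185, 126 and 413 CPM in BMDM (-7.03 ± 0.66). Its change was -6.30 and -8.00 without BALF of mouse 1 and mouse 4, and -6.41 without BMDM of mouse 4. Sparc, a secreted matrix protein of stromal cells, had a ratio of BMDM over BALF of 92.0 (95% interval 25.2 to 763) and was highest in BMDM of mouse 4 (30.0, 35.9 and 101 CPM). Its fitted change was -6.39, and -5.64 without that library. Of 15 cathepsins and cystatins, 3 were higher and 4 lower, against 18.2% and 19.3% of all genes. The higher count was 1 without any single library of mouse 1 or mouse 2. Ctsk, a collagen-degrading cathepsin best known from osteoclasts (ENSMUSG00000028111, chr3:95499256-95509362 on the plus strand), stood at 1240, 952 and 1320 CPM in BALF, against 7.94, 22.2 and 12.9 CPM in BMDM (+6.39 ± 0.32). Ctsb, the most abundant of the lower ones in BMDM, stood at 1760, 1540 and 1491 CPM in BALF, against 6225, 5701 and 7790 CPM in BMDM (-2.04 ± 0.23). Osteoclast-type genes, Ctsk among them, were split, with 4 of 12 higher and 3 lower, against 18.2% and 19.3% of all genes. With library totals alone 6 were lower. Acp5, the tartrate-resistant phosphatase, stood at 127, 103 and 170.1 CPM in BALF, against 1.32, 4.56 and 12.9 CPM in BMDM (+4.47 ± 0.49), and at +5.60 without BMDM of mouse 4. Ckb, brain creatine kinase, stood at 1.40, 1.13 and 1.79 CPM in BALF, against 120.4, 120.0 and 255 CPM in BMDM (-6.75 ± 0.48). Of 41 lysosome genes, 14 were higher and 11 lower, against 18.2% and 19.3% of all genes.

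Growth genes showed few differences. Of 32 DNA replication genes none was higher in BALF and 2 were lower, and of 32 mitosis genes 4 were higher and 1 lower, against 18.2% and 19.3% of all genes. BMDM of mouse 4 carried the most replication transcripts, with 492.5 to 563.2 CPM over the list in BALF and 380.7 to 870.8 CPM in BMDM. Without that library 5 replication and 10 mitosis genes were called higher in BALF, while 2 mitosis genes were without BALF of mouse 2 or without BMDM of mouse 1 or mouse 2. The lower replication count was 1 without BALF of mouse 2 or BMDM of mouse 4 and 4 without BMDM of mouse 2. With library totals alone 6 replication genes were lower and 2 mitosis genes higher. Mki67, the proliferation marker, was not called at 28.6, 35.0 and 64.5 CPM in BALF, against 19.4, 22.8 and 35.7 CPM in BMDM (+0.72 ± 0.31, adjusted p = 0.0758). It was called without BALF of mouse 1 (adjusted p = 0.0315), without BMDM of mouse 4 (adjusted p = 0.0231) and with mice as blocks in the 6 libraries (adjusted p = 0.0224). Mcm6, a subunit of the replicative helicase, was lower at 16.1, 6.78 and 16.1 CPM in BALF, against 42.8, 35.2 and 47.4 CPM in BMDM (-1.64 ± 0.27), and the spindle checkpoint kinase Bub1b was higher at 32.1, 20.3 and 46.5 CPM in BALF, against 5.73, 1.96 and 7.61 CPM in BMDM (+2.66 ± 0.40). Of 43 ribosomal protein genes 3 were higher and none lower, with 1 higher without BMDM of mouse 2 and 6 without BALF or BMDM of mouse 4. Of 47 nuclear genes of the respiratory chain 8 were higher and none lower. The higher count was 2 without BALF of mouse 1, 5 without BALF of mouse 2, 3 without BMDM of mouse 1 and 2 without BMDM of mouse 2. With library totals alone 5 ribosomal protein genes and 4 respiratory chain genes were called lower. Of 10 mitochondrially encoded genes 6 were higher, or 3 without BALF or BMDM of mouse 2. The sum over that list was 140800 to 181700 CPM in BALF and 85200 to 98820 CPM in BMDM.

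Markers of other cells differed between the groups and between libraries. Neutrophil markers were lower in BALF for 9 of 10 tested. S100a9, a calcium-binding protein of neutrophils and monocytes, stood at 19.5, 29.4 and 16.1 CPM in BALF, against 1024, 774 and 2175 CPM in BMDM (-5.95 ± 0.49), and the granule protein Ngp at 4.89, 7.91 and 2.69 CPM in BALF, against 229, 141 and 453 CPM in BMDM. Ltf, lactoferrin, stood at 0.698, 2.26 and 3.58 CPM in BALF, against 58.7, 37.8 and 131 CPM in BMDM (-5.16 ± 0.64), which was -5.79 without BALF of mouse 4 and -4.51 without BMDM of mouse 4. Elane, the neutrophil elastase, had no count in BALF and a mean of 8.80 CPM in BMDM. All 3 tested stromal genes, Col1a1, Col1a2 and Acta2, were lower in BALF. The stromal list summed to 1.79 to 6.78 CPM in BALF and 114.7 to 333.6 CPM in BMDM. In both lists BMDM of mouse 4 was the highest. Of 10 B cell markers, 3 were lower in BALF, Ighm and Cd79b among them, and none higher, against 19.3% and 18.2% of all genes. Ighm, the immunoglobulin heavy chain of B cells, stood at 3.49, 0 and 1.79 CPM in BALF, against 120.4, 104 and 83.7 CPM in BMDM. Cd79b, a chain of the B cell receptor, stood at 0, 0 and 0.895 CPM in BALF, against 3.97, 7.17 and 1.76 CPM in BMDM, and its partner Cd79a had no count in either group. Without BALF of mouse 1 the call of Cd79b was lost (adjusted p = 0.0503) and 1 B cell marker was lower. Cd3e stood at 0.698, 0 and 0 CPM in BALF with no count in BMDM. Cd4 and Il7r, which macrophages and monocytes can carry, were lower in BALF. Cd4 had no count in BALF, against 12.4, 11.7 and 10.5 CPM in BMDM. Il7r stood at 6.28, 7.91 and 8.95 CPM in BALF, against 188, 205 and 469 CPM in BMDM. In BALF, haemoglobin was uneven. Hbb-bs stood at 23.7, 297 and 489 CPM in BALF, against 4.41, 1.30 and 2.34 CPM in BMDM (+6.51 ± 0.96), which was +5.74 without BALF of mouse 4, +7.12 without BMDM of mouse 1 and +3.02 with BALF of mouse 1 as the only BALF library. Scgb1a1, the secretory protein of club cells, stood at 0.698, 14.7 and 26.9 CPM in BALF and had no count in BMDM. Surfactant protein C, Sftpc, averaged 0.908 CPM in BALF. Of 3 lung epithelium markers tested, 1 was higher in BALF, 1 lower and 1 not called, against 18.2% and 19.3% of all genes. The lower one was Napsa, at -0.97, and the higher one Epcam. Epcam, an epithelial adhesion protein, stood at 41.2, 44.1 and 35.8 CPM in BALF, against 1.76, 0 and 0.585 CPM in BMDM (+5.38 ± 0.58; +6.71 without BMDM of mouse 1), and was even across the BALF libraries while Scgb1a1 was not. With BALF of mouse 1 alone 2429 genes were called, 1185 higher and 1244 lower. Of these, 2300 were among those called with all libraries. What part other cells had in the differences above was not tested.

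**Figure D5:**
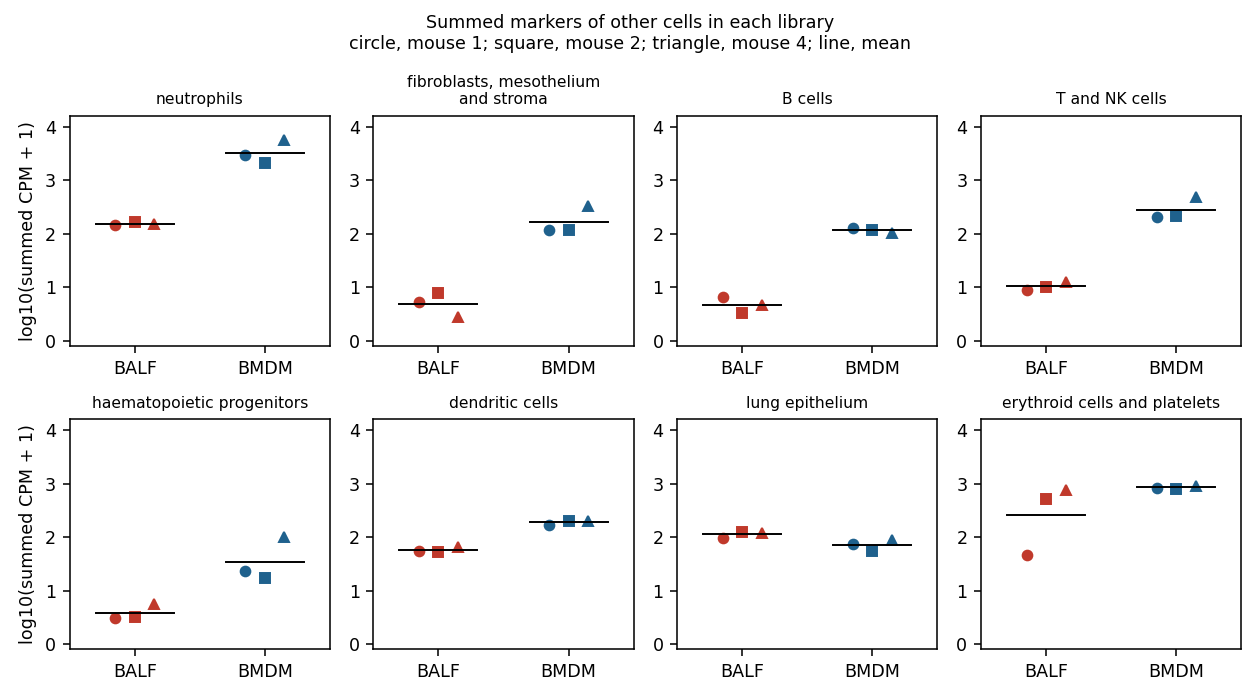
Summed level of the markers of 8 other cell types in each library, as log10(summed CPM + 1), for BALF and BMDM, with 1 symbol per mouse and a line at the mean of the logs. Neutrophil, stromal, B cell and T cell lists are lower in BALF than in BMDM in every mouse. In BMDM most of the T and NK cell sum is Il7r and most of the B cell sum is Ighm. The erythroid and platelet list of BALF is spread from 46.06 to 747.5 CPM. In BMDM this list sums to 801.3 to 909.5 CPM, and most of that is Pf4.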

How the data were processed

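Per the labels' protocols, libraries were made from 150 ng of total RNA by QuantSeq 3′ FWD, using a UMI module and 15 PCR cycles, and read for 65 bp from a single end. The deposited files give raw counts of reads per gene, 1 file a library. Per the submitters' processing notes the build was GRCm38 (mm10). The sources used here do not give the aligner, counter, annotation or UMI collapsing. Intervals and bounds cover counting error of pooled reads only, not the spread between mice.

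GENCODE M21 named 47224 of 47643 identifiers. Lines naming no gene stayed out of sizes and tests (19.9% to 28.3% no feature, 0.45% to 0.547% ambiguous). The 12 libraries of BALF, BMDM, mexAM and PLF were fitted together (filterByExpr, TMM, robust edgeR 4.0.16 quasi-likelihood F test, R 4.3.3, 8 residual degrees of freedom, group as the only term), and the pool cultures were left out. The standard error is the size of the log2 change divided by the root of F. Intervals of ratios are exact binomial at 95%. DESeq2 1.42.0, limma 3.58.1 and 18 other settings were tried. Replicate pairs differed by a chi-square of 6.14 to 13.1 per degree of freedom, above sampling noise. The labels give mouse numbers, taken as the same animals, and deviations from the group means of BALF and BMDM correlated at 0.00356, 0.0208 and 0.0951 in mice 1, 2 and 4. In data simulated for this comparison (9523 genes), 37.5% of 96 genes changed 2-fold and 86.5% of 96 changed 4-fold were called. So were 7 unchanged genes. Far fewer genes changed there than were called in the real data, so these rates may not carry over.

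The comparison, the 56 gene lists and the 26 key genes were chosen with earlier results of these data known. The naming rule took, in either direction, the 12 largest calls with at least 50 CPM and no overlap (no predicted genes or receptor segments), up to 4 called members a list with at least 10 CPM, and the key genes. The text gives a selection, and some genes are not reported here. Isg15, Ifit1, Ifit3, Rsad2, Hmgcs1 and Mvd were added for their promoters, and Isg20, Mmp12, Abcg1, Cd79a, Cd79b, Cd3e, Elane, Scgb1a1, Sftpc, Tlr2 and Dnajb4 after their values were seen. Promoters came from RefSeq (27025 genes, the first row of each).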

Additional observations from a re-analysis of the deposited data

How the results depend on the processing

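Against 3747 genes called (1818 higher, 1929 lower in BALF), leaving out single libraries gave 3142 to 3573 (1462 to 1712 higher, 1627 to 1861 lower). Mice as a block (replicate pairing by mouse) gave 3730 calls in 12 libraries and 4036 in the 6 of BALF and BMDM, where the block gave Mki67 the call (adjusted p = 0.0224) and took it from P2rx7 (0.0909) in the 6, and from Cd33 (0.0668) and mt-Nd4 (0.0543) in the 12. It changed no other call of a named gene. The block in the 6 libraries moved these list counts by over 1.5 times from those of the 12 libraries with no block, given in brackets. It called M-CSF and GM-CSF axis 5 lower (3), glycolysis and hypoxia response 7 higher (3), glycolysis and hypoxia response 11 lower (7), DNA replication 4 lower (2), mitosis 8 higher (4). It called chemokine receptors 5 higher (3), Toll-like receptors and partners 0 higher (1), immediate early genes 3 lower (1), B cells 1 lower (3), mast cells 0 lower (1). It also called dendritic cells 0 higher (1), dendritic cells 1 lower (2), lung epithelium 3 higher (1), erythroid cells and platelets 4 higher (1), haematopoietic progenitors 0 lower (1). DESeq2 gave 3605, voom 3703, relative log expression 3752, upper quartile 3720, no filter 4206, a filter at 10 CPM 3485, all 16 libraries 3755 and the 6 alone 3789. BALF of mouse 1 alone, chosen after seeing the data, gave 2429 calls (1185 higher, 1244 lower), with fewer samples by construction and the spread of that lone library assumed to be like that of the other groups. It left 9 genes of the unfolded protein response higher, 0 mitochondrially encoded genes higher, 3 inflammatory cytokines higher, 2 cytokines lower, 7 lysosome genes lower and 2 genes of the M-CSF and GM-CSF axis higher. Calls of at least 2-fold were 1209 higher and 1525 lower. Among 231 named genes over 20 settings, Spi1 changed sign, at -0.11 with library totals alone and -0.003 with BALF of mouse 1 alone, and the cause was not tested. A further 94 gene and setting pairs lost the call and 5 gained it. Fitted changes of genes silent in a group depend on the tool, as for Ifit2 at -10.22 in edgeR, -9.13 in DESeq2 and -7.58 in voom. Col1a1 was not called by DESeq2 (adjusted p = 0.125). Depth limits genes under about 1 CPM, where a library holds 1 count or none.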

Other observations

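Families outside the lists were chosen after their values were seen and are given without a test of the family. Over all genes, 19.3% were called lower and 18.2% higher. Of 10 Ms4a genes, which encode membrane proteins of immune cells, 8 were lower in BALF and only Ms4a8a was higher. Ms4a7 stood at 13.3, 14.7 and 5.37 CPM in BALF, against 1395, 1510 and 1175 CPM in BMDM (-6.93 ± 0.31) and Ms4a8a at 222, 253 and 176 CPM in BALF, against 0.441, 1.30 and 1.76 CPM in BMDM (+7.53 ± 0.57). Ms4a14 had no count in BALF, at least 73.6-fold lower. Of 10 PYHIN genes, sensors of DNA and their relatives, 9 were lower and the inflammasome sensor Aim2 was higher, at 60.7, 50.8 and 83.3 CPM in BALF, against 28.2, 33.2 and 26.9 CPM in BMDM (+1.15 ± 0.23). Mndal stood at 10.5, 11.3 and 8.95 CPM in BALF, against 388, 464 and 280.3 CPM in BMDM (-5.20 ± 0.44) and Ifi203 at 4.89, 5.65 and 8.95 CPM in BALF, against 311, 342 and 182 CPM in BMDM (-5.42 ± 0.58). Of 7 Schlafen genes 5 were lower, and for Slfn5 the ratio of BMDM over BALF was 149.9 (95% interval 41.3 to 1242), with a fitted change of -7.06, -6.36 without BALF of mouse 1 and -10.21 without BALF of mouse 4. Many genes of the PYHIN and Schlafen families are known to respond to interferon.

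The 8 S100a genes tested were all called, 4 higher and 4 lower, against 18.2% and 19.3% of all genes. The lower ones were S100a4, S100a6, S100a8 and S100a9. S100a4 stood at 15.4, 11.3 and 16.1 CPM in BALF, against 252, 287.5 and 688 CPM in BMDM (-4.82 ± 0.45), and -4.21 without BMDM of mouse 4. S100a11 stood at 973, 1010 and 578 CPM in BALF, against 179.5, 126 and 334 CPM in BMDM (+2.00 ± 0.35). Among 10 P2 receptors, which sense nucleotides, 4 were higher and 4 lower. P2ry2 stood at 39.1, 38.4 and 43.9 CPM in BALF, against 5.73, 6.52 and 9.95 CPM in BMDM (+2.46 ± 0.29) and P2ry6 at 5.58, 11.3 and 19.7 CPM in BALF, against 149, 158 and 126 CPM in BMDM (-3.60 ± 0.35). Of 24 receptors named Gpr, 11 were lower and 4 higher, against 19.3% and 18.2% of all genes. Gpr34, a lysophosphatidylserine receptor, had no count in BALF, against 71.9, 68.5 and 49.7 CPM in BMDM, at least 72.6-fold lower. Gpr55 had 25.1, 16.9 and 15.2 CPM in BALF and no count in BMDM, at least 35.1-fold higher.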
